A study of Homo sapiens with 60 samples.

Results

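The genes described here are 7 targets of the transcription factor NRF2 that make or spend the cell's reducing power: GCLM, GCLC, SLC7A11, TXNRD1, SRXN1, NQO1 and HMOX1. They were chosen by symbol, with no measured value in the rule but with earlier results of these data known. The table held 60590 gene rows, and 6 of the 7 genes had enough reads to be tested. SRXN1 was listed at 0 in all 56 libraries. The data are read counts per gene from APEX2 proximity labelling of RNA in Flp-In HEK293, human embryonic kidney cells with a site for stable insertion of a transgene. APEX2 is an engineered peroxidase that attaches biotin to RNA near it when peroxide is added, so RNA held on streptavidin beads (the pulldown) can be set against the same cells' RNA before the beads (the input). Each of 14 lines stably expressed a FLAG-tagged APEX2 construct, and each line gave 2 pulldown and 2 input libraries.

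As baits, SRSF7, SRSF1 and RNPS1 mark nuclear speckles, and SAM68 is an RNA-binding protein of the nucleoplasm and of nuclear bodies named after it. PML bodies were approached through PML and SP100, gems through SMN2, Cajal bodies through WRAP53 and histone locus bodies through NPAT. FBL is a nucleolar protein and LMNA a protein of the lamina, while NLS, GFP and FLAG carry no nuclear body protein in their names. Every line had 500 µM biotin-phenol for 30 minutes and then 1 mM hydrogen peroxide for 1 minute before quenching with Trolox, ascorbate and azide. No library in the table was made without peroxide, so induction by peroxide is not measured here. A second table holds 4 libraries of SRSF7 pulldown RNA, 2 after ribosomal RNA depletion and 2 after poly(A) selection. Whether a line is 1 clone and whether replicates were separate cultures is not given in the sources used here, so p-values here reflect only how these libraries spread, which may be technical.

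NRF2, encoded by NFE2L2, is kept low by KEAP1, which hands it to a CUL3 ubiquitin ligase. Oxidants and electrophiles modify KEAP1, NRF2 escapes degradation, enters the nucleus, pairs with a small MAF protein and binds antioxidant response elements in DNA. BACH1 competes for such elements and is known above all for holding HMOX1 down. The 7 genes cover the main arms of the response. SLC7A11 is the transport chain of the cystine importer xCT, GCLC and GCLM are the catalytic and modifier subunits of glutamate-cysteine ligase, TXNRD1 is the cytosolic thioredoxin reductase, SRXN1 repairs overoxidised peroxiredoxins, NQO1 reduces quinones and HMOX1 breaks down heme.

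The DNA element that defines the family is shown first because it is the feature that NRF2 reads. RefSeq promoter windows on GRCh38.p14, from 250 bases before to 50 bases after a start site, were held for 5 of the 7 genes. A search of both strands for the core element TGACNNNGC found it in GCLM and in both windows of TXNRD1, and these letters were not in the windows of GCLC, SRXN1 and NQO1. Capitals mark the element with 10 bases on each side, written along the gene's own strand, so an element on the opposite strand reads as its reverse complement.
GCLM, chr1:93909446-93909474, minus strand, element centred 30 bases before the start: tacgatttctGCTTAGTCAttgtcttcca
TXNRD1 upstream start, chr12:104215670-104215698, plus strand, 95 bases before: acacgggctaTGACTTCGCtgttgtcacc
TXNRD1 upstream start, chr12:104215761-104215789, plus strand, 4 bases before: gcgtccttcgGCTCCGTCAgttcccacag
TXNRD1 downstream start, chr12:104286920-104286948, plus strand, 98 bases before: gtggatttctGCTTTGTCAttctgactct
The GCLM stretch and that of the downstream TXNRD1 start shared 19 of 29 bases when lined up on the element. Its fixed letters match by the search itself, and the other TXNRD1 stretches were not compared. The core element was in 13.3% of the 35116 RefSeq promoter windows searched, and the AP-1 element TGANTCA in 7.71%; the elements shown overlapped no AP-1 match. A match in a window is a description of its letters.

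Per the RefSeq table on GRCh38, the genes span chr6:53497341-53545101 (GCLC), chr1:93885199-93909430 (GCLM), chr4:138164097-138242349 (SLC7A11), chr12:104215779-104350307 (TXNRD1), chr20:646615-653200 (SRXN1), chr16:69709401-69726560 (NQO1) and chr22:35381096-35394207 (HMOX1), and all are protein coding. The strand setting of the counting is not given, so reads of overlapping or antisense genes may be shared with them. Of the overlapping genes that have a row, SLC7A11-AS1 held a median of 4 counts and at most 56, and EID3 and RPL18AP3 within TXNRD1 were listed at 0.

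Input libraries held 14038645 to 56256915 counts and pulldown libraries 19280434 to 42097988. By the counts of 2 ribosomal protein pseudogenes the libraries fall into 3 sets, whose origin is not given: set I has 16 inputs (lines SAM68, RNPS1, SP100, SMN2, WRAP53, NPAT, FBL and GFP), set II the other 12 inputs and 24 pulldowns, and set III the pulldowns of LMNA and GFP together with all of the second table. Lines SRSF7, SRSF1, PML, NLS and FLAG lie wholly in set II. In every other line the inputs and pulldowns are of different sets, so set and fraction cannot be told apart in pulldown over own input. The first inputs of FBL and NPAT stood apart from their partners in the levels given below. Of 6 markers of HEK293 cells, 5 had a median input level of 1 CPM (counts scaled to library size, with TMM) or more, and NEFM had 0.377; the markers of blood, liver, endothelium and keratinocytes had medians below 1 CPM, while COL1A1 of fibroblasts had 12.5 and RBFOX3 of neurons 14.2. KHDRBS1, which encodes SAM68, stood at 1133 and 987 CPM in the SAM68 line's inputs and at 253 to 417 in the other 26.

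Before pulldown the 6 tested genes were measured in every input, and GCLC was called different in no line. In RNA of a whole culture, fewer cells with a transcript and less of it per cell cannot be told apart. SLC7A11 ranged most among the inputs of the main glutathione and thioredoxin genes, from 25.9 CPM (NPAT input 1) through a median of 85.0 to 113 CPM (SRSF7 input 2). GCLC ran from 68.4 to 90.0 CPM with a median of 78.5, GCLM from 41.4 to 69.4 with a median of 48.5, and TXNRD1 from 172 to 294 with a median of 228. The highest GCLM and TXNRD1 inputs were both SRSF1 input 1. NQO1 lay between 3.12 and 6.36 CPM and HMOX1 between 5.95 and 13.03. These are levels relative to library size, not per length, so they order libraries for a gene and not genes among themselves.

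SRXN1, at 0 in 56 of 56 libraries and with 1 count in all in the second table, has only a limit. A count of 0 allows up to 3 counts, which is 0.0550 to 0.216 CPM depending on the library, for counting error only. PRDX2, a peroxiredoxin used by nearly every cell, was also listed at 0 in every input, so the zeros are given as listed and no level is drawn from them.

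**Figure D1:**
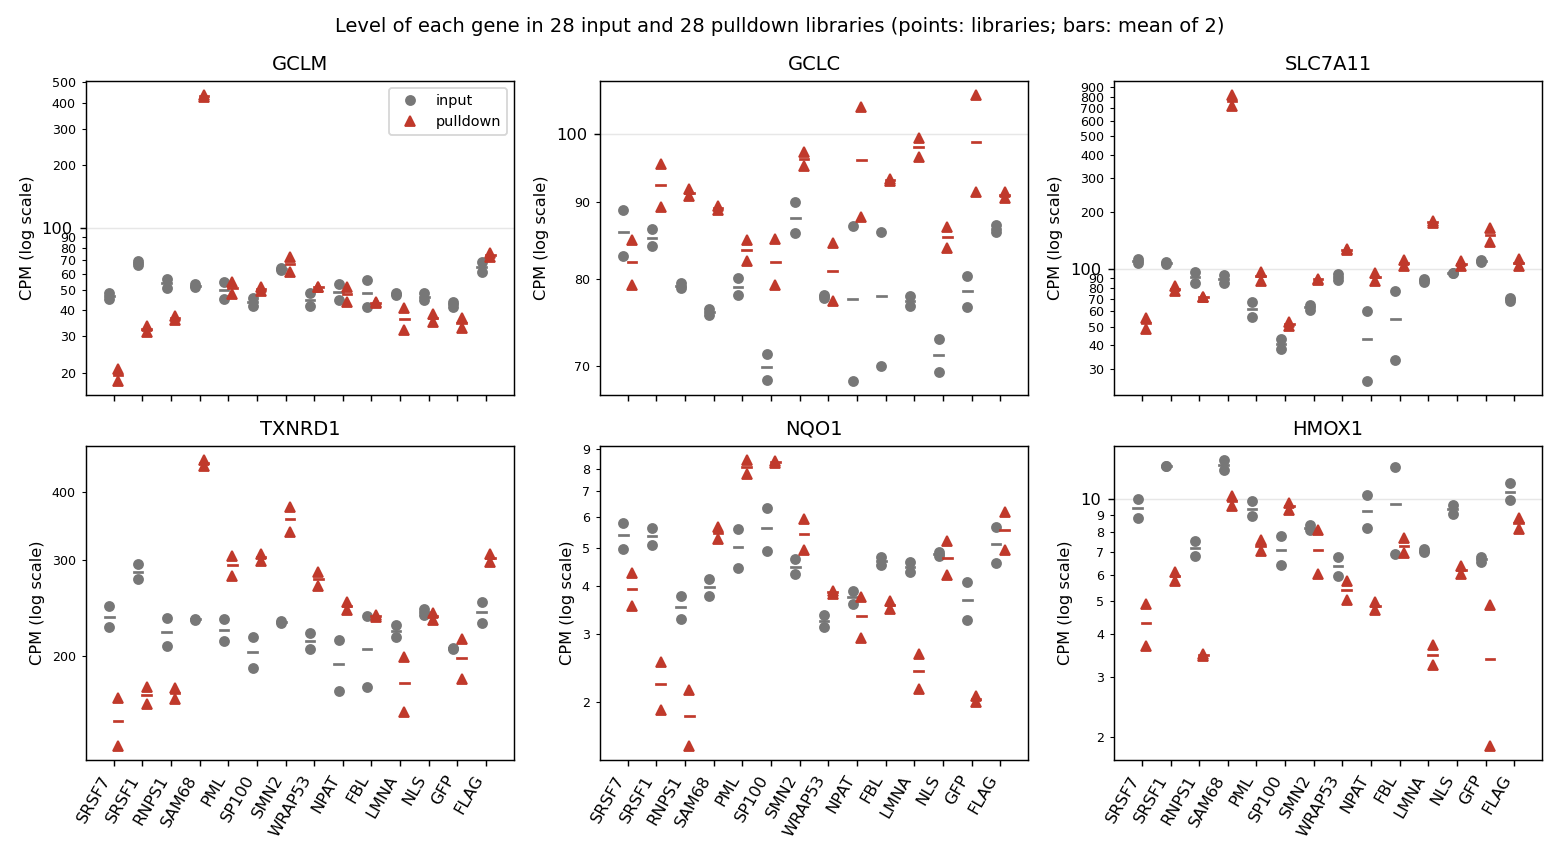
Level of 6 NRF2 antioxidant genes in each of 56 libraries, in CPM on a log axis, by APEX2 bait, each panel with its own range; grey circles are inputs, red triangles pulldowns, and bars the mean of 2 libraries. The SAM68 pulldowns of GCLM (433 and 424 CPM) and SLC7A11 (819 and 716 CPM) stand above every other library of those genes, while GCLC stays between 68.4 and 106 CPM throughout.

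The SAM68 pulldown held much more GCLM and SLC7A11 RNA than its input, more TXNRD1, and nearly the same amount of GCLC. GCLM was at 53.4 and 51.9 CPM in the inputs and at 433 and 424 CPM in the pulldowns. SLC7A11 was at 93.0 and 84.5 CPM in the inputs and at 819 and 716 CPM in the pulldowns. TXNRD1 was at 234 and 233 CPM in the inputs and at 445 and 457 CPM in the pulldowns. For these 3 genes every pulldown lay above every input of the line, and above all 26 pulldowns of other baits, whose highest values were 75.4 CPM for GCLM (FLAG pulldown 2), 178 CPM for SLC7A11 (LMNA pulldown 2) and 375 CPM for TXNRD1 (SMN2 pulldown 2).

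As log2 pulldown over input (called enrichment here), SAM68 gave 3.03 ± 0.14 (SE, 2 pulldowns and 2 inputs) for GCLM, an 8.14-fold rise with an adjusted p of 5.9e-20. SLC7A11 rose 8.64-fold (log2 3.11 ± 0.23, adjusted p = 7.5e-14) and TXNRD1 1.93-fold (log2 0.95 ± 0.12, adjusted p = 5.3e-08). NQO1, at 4.17 and 3.77 CPM in the inputs and 5.28 and 5.65 in the pulldowns, was called at 1.37-fold, but the call was lost without any one of the 4 libraries. GCLC (log2 0.23 ± 0.10, adjusted p = 0.068) and HMOX1 (log2 -0.36 ± 0.22, adjusted p = 0.19) were not called. Of the 6 genes 4 were called, all higher, where 43.1% of all 23681 genes tested were called in either direction (an adjusted p under 0.05 in edgeR's quasi-likelihood test, two-sided, over all genes). The median of the 6 was 0.70 against 0.03 for all genes. Among all 23681 genes tested, SLC7A11 ranked 722, GCLM 749 and TXNRD1 5057 by enrichment with SAM68. Their ranks were 34, 36 and 2008 among the 11885 genes with a mean of 5 CPM or more in the SAM68 pulldowns. That filter uses the pulldowns in which these genes are high.

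Both subunits of glutamate-cysteine ligase are needed for full enzyme activity, yet their RNAs separated in this pulldown. The ratio of GCLM to GCLC counts was 4.77 and 4.84 in the SAM68 pulldowns. It was 0.512 to 0.804 in the 28 inputs and 0.231 to 0.832 in the other 26 pulldowns, all below the SAM68 pulldowns. The ratio within a library needs no scaling between libraries.

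Set against the nuclear reference NLS, whose own enrichment was -0.34 for GCLM, 0.16 for SLC7A11 and -0.03 for TXNRD1, the SAM68 enrichment was higher by 3.37 ± 0.19 for GCLM (10.3-fold, adjusted p = 8.5e-17), by 2.95 ± 0.31 for SLC7A11 (7.74-fold, adjusted p = 1.3e-09) and by 0.98 ± 0.18 for TXNRD1 (1.97-fold, adjusted p = 4.4e-05). GCLC (-0.03 ± 0.15), NQO1 (0.49 ± 0.26) and HMOX1 (0.24 ± 0.31) were not called, against 19.8% of all genes called. The SAM68 inputs are of set I and the pulldowns of set II. Between pulldowns alone, all of set II, SAM68 over NLS was 3.54 for GCLM, 2.85 for SLC7A11 and 0.93 for TXNRD1, and HMOX1 was called there too, at 0.67 (adjusted p = 0.014). The 3 calls against NLS held without each library of the comparison, with adjusted p-values of at most 7.7e-14, 1.7e-07 and 6.0e-04.

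**Figure D2:**
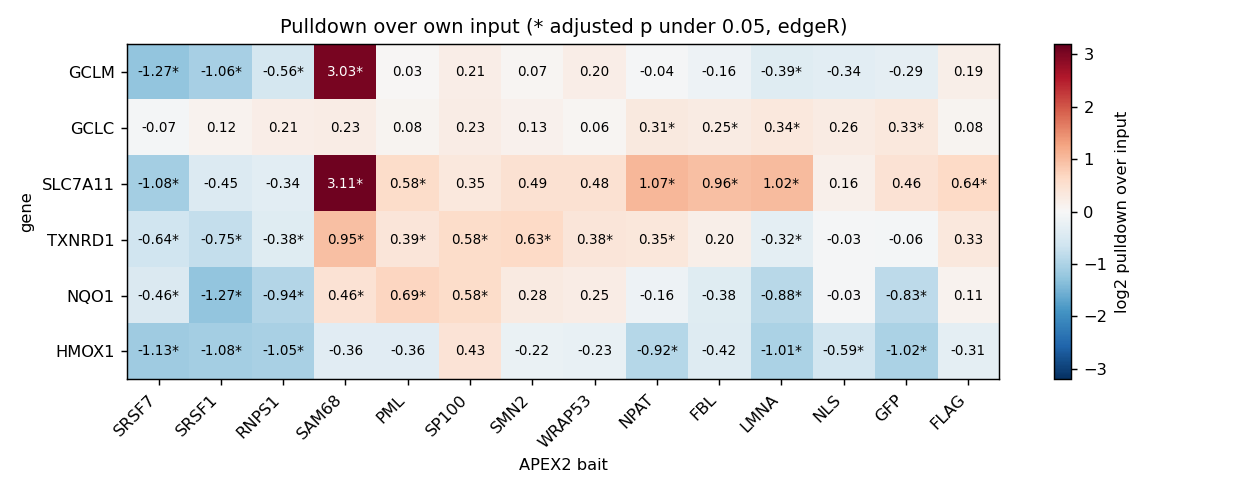
Enrichment (log2 pulldown over own input) of 6 NRF2 antioxidant genes for 14 APEX2 baits; red is more in the pulldown, blue less, and an asterisk marks an adjusted p under 0.05 in edgeR. SAM68 stands out with 3.03 for GCLM and 3.11 for SLC7A11, and the speckle baits SRSF7, SRSF1 and RNPS1 are below 0 for GCLM, SLC7A11, TXNRD1, NQO1 and HMOX1, of which SLC7A11 with SRSF1 and RNPS1 is not called.

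GCLM, TXNRD1, NQO1 and HMOX1 fell with all 3 speckle baits, SLC7A11 fell with SRSF7, and GCLC did not pass the test with any of them. GCLM was at 18.3 and 20.8 CPM in the SRSF7 pulldowns against 48.5 and 45.6 in the inputs, at 33.7 and 31.4 against 69.4 and 66.1 with SRSF1, and at 35.9 and 37.4 against 51.4 and 56.6 with RNPS1. TXNRD1 was at 137 and 167 CPM in the SRSF7 pulldowns against 247 and 226, at 176 and 163 against 294 and 277 with SRSF1, and at 167 and 174 against 208 and 235 with RNPS1. Pulldowns lay below inputs in all 3 lines for both genes, though the RNPS1 inputs are of set I and its pulldowns of set II. GCLM fell by 1.27 ± 0.13 with SRSF7, 1.06 ± 0.13 with SRSF1 and 0.56 ± 0.13 with RNPS1 on the log2 scale, and TXNRD1 fell by 0.64 ± 0.12, 0.75 ± 0.12 and 0.38 ± 0.12.

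SLC7A11 was at 48.5 and 55.8 CPM in the SRSF7 pulldowns against 108 and 113 in the inputs, and fell by 1.08 ± 0.22 (adjusted p = 1.1e-04). In the SRSF1 line it was at 81.6 and 76.4 against 109 and 107 CPM (log2 -0.45), and in the RNPS1 line at 71.4 and 71.7 against 84.5 and 97.1 (log2 -0.34), and neither was called; with the set II lines fitted alone SRSF1 stood at -0.45 and was called (adjusted p = 1.3e-05). HMOX1 fell with all 3 baits, by 1.13 (SRSF7), 1.08 (SRSF1) and 1.05 (RNPS1), and NQO1 by 0.46, 1.27 and 0.94. GCLC stood at -0.07, 0.12 and 0.21. In all, 5, 4 and 4 of the 6 genes were called, all lower, where 40.3%, 51% and 34.5% of all genes were called for SRSF7, SRSF1 and RNPS1; the medians of the 6 were -0.86, -0.90 and -0.47 against 0.17, 0.28 and 0.16 for all genes. The TXNRD1 call with RNPS1 was lost without RNPS1 pulldown 1 or input 2, and the NQO1 call with SRSF7 without SRSF7 pulldown 1 or input 1.

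Relative to NLS, the mean enrichment of the 3 speckle baits was lower for GCLM (-0.62 ± 0.15, adjusted p = 0.0023), SLC7A11 (-0.79 ± 0.25, adjusted p = 0.022), TXNRD1 (-0.56 ± 0.14, adjusted p = 0.0040) and NQO1 (-0.86 ± 0.21, adjusted p = 0.0028). HMOX1 (-0.49 ± 0.25) and GCLC (-0.18 ± 0.12) were not called. Thus 4 of 6 were called lower, where 18.9% of all genes were called. When the 5 lines wholly in set II were fitted alone, with SRSF7 and SRSF1 as the speckle baits, all 6 were called lower. GCLC stood there at -0.25 (adjusted p = 0.0090) and HMOX1 at -0.53 (adjusted p = 0.0060). The share of all genes called in that fit was not counted, so its 6 calls cannot be set against a share. Between pulldowns alone HMOX1 was called too (-0.47, adjusted p = 0.047) while GCLC stood at 0.05. The SLC7A11 call was lost without any one of the 4 NLS libraries, with values from -0.83 to -0.74 over the libraries left out. The 11 comparisons of this kind include 10 that share the NLS libraries, so they are not independent of each other.

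PML, SP100, SMN2, WRAP53 and FLAG held somewhat more TXNRD1 than their inputs, 4 of the 5 past the threshold. TXNRD1 was at 305 and 281 CPM in the PML pulldowns against 234 and 213, at 299 and 307 against 216 and 190.2 with SP100, at 337 and 375 against 229.6 and 232 with SMN2, and at 268 and 285 against 220.2 and 206 with WRAP53. The pulldowns lay above the inputs in each of these lines. The inputs of SP100, SMN2 and WRAP53 are of set I and their pulldowns of set II. Over all lines TXNRD1 had a median of 215 CPM in set I inputs and 236 CPM in set II inputs. TXNRD1 rose by 0.39 ± 0.12 (PML), 0.58 ± 0.12 (SP100), 0.63 ± 0.12 (SMN2) and 0.38 ± 0.12 (WRAP53), and stood at 0.33 in FLAG (308 and 297 against 229.9 and 251 CPM), which was not called. The WRAP53 call was lost without any one of its 4 libraries and the PML call without PML pulldown 1 or input 2.

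NQO1, which rests on 44 to 270 counts in each pulldown, was highest in the PML-body pulldowns. It was at 8.43 and 7.75 CPM with PML against 5.60 and 4.43 in the inputs, and at 8.29 and 8.39 with SP100 against 6.36 and 4.92. It rose by 0.69 ± 0.17 (adjusted p = 0.0034) and 0.58 ± 0.18 (adjusted p = 0.014); the first call was lost without PML input 2 and the second without either SP100 pulldown or SP100 input 2. SLC7A11 rose with PML, from 67.4 and 55.9 to 96.7 and 87.0 CPM (log2 0.58 ± 0.22), and with FLAG, from 70.5 and 68.3 to 113 and 103 CPM (log2 0.64 ± 0.22), and both calls were lost without any one of their 4 libraries, although pulldowns lay above inputs in each. GCLM in these 5 lines stood between 0.03 and 0.21 and GCLC between 0.06 and 0.23, with none called.

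Counted over the 6 genes, 3 were called with PML (25% of all genes), 2 with SP100 (27.9%), 1 with SMN2 (15.1%), 1 with WRAP53 (19.9%) and 1 with FLAG (10.9%), all higher. Against NLS, TXNRD1 with SMN2 was the one call in these lines (0.65 ± 0.18, adjusted p = 0.017), where 6.33% of all genes were called, and it was lost without 5 of the 8 libraries taken out in turn. None of the 6 was called for PML bodies (2.95% of all genes), WRAP53 (8.29%) or FLAG (2.69%). The PML-body values against NLS were 0.46 ± 0.16 for GCLM, 0.51 ± 0.15 for TXNRD1 and 0.67 ± 0.22 for NQO1, with adjusted p-values of 0.089, 0.054 and 0.076. The fit of set II lines alone took the uneven FBL and NPAT inputs out of the estimate of spread. PML over NLS was called there for GCLM (0.41), SLC7A11 (0.45), TXNRD1 (0.46) and NQO1 (0.76), and FLAG over NLS for GCLM (0.58), SLC7A11 (0.53) and TXNRD1 (0.41). How many of all genes were called in that fit was not counted. For SLC7A11 the enrichment of PML bodies over NLS in all lines was 0.30 and not called, and between pulldowns alone the direction turned and was called, at -0.63 (adjusted p = 0.0085). FLAG against NLS stood at 0.02 (adjusted p = 0.97) between pulldowns alone.

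The nucleolar bait FBL and the histone locus body bait NPAT held more SLC7A11 than their inputs, but this rests in part on 1 input library in each line. SLC7A11 was at 33.4 and 76.9 CPM in the FBL inputs and at 104 and 112 CPM in the pulldowns. In the NPAT line it was at 25.9 and 60.2 CPM in the inputs and at 86.9 and 95.3 CPM in the pulldowns. In both lines the first input lay far below the second, while the pulldown replicates were close. The inputs of both lines are of set I and the pulldowns of set II. SLC7A11 rose by 0.96 ± 0.22 with FBL and 1.07 ± 0.22 with NPAT; without the first input of each line the values were 0.54 and 0.67, still past the threshold with both inputs left out together, while with only FBL input 1 left out FBL stood at 0.49 (adjusted p = 0.096) and was not called.

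GCLC rose slightly with the same baits, by 0.25 ± 0.10 (FBL) and 0.31 ± 0.10 (NPAT), and TXNRD1 with NPAT by 0.35 ± 0.12. Without the first inputs of both lines the GCLC values were 0.17 and 0.22 and neither was called, and TXNRD1 with NPAT stood at 0.28 (adjusted p = 0.049); with NPAT input 1 alone left out it stood at 0.21 (adjusted p = 0.32) and was not called, nor was it without NPAT pulldown 2. HMOX1 fell with NPAT by 0.92 ± 0.23, from 10.2 and 8.19 to 4.71 and 4.97 CPM. FBL had 2 of 6 genes called (37% of all genes) and NPAT 4 of 6 (46.4%). Against NLS none was called for either bait, where 0.684% (FBL) and 4.21% (NPAT) of all genes were.

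At the lamina, and in the GFP line whose pulldowns are of the same library set, SLC7A11 and GCLC were high and NQO1 and HMOX1 low. SLC7A11 was at 175 and 178 CPM in the LMNA pulldowns against 85.5 and 89.3 in the inputs, and at 164 and 139.8 in the GFP pulldowns against 111 and 109. It rose by 1.02 ± 0.22 with LMNA (adjusted p = 1.4e-04), and its 0.46 with GFP was not called. NQO1 was at 2.67 and 2.16 CPM with LMNA and at 2.08 and 2.00 with GFP, below inputs of 4.34 and 4.59 and of 3.26 and 4.10, and fell by 0.88 ± 0.19 and 0.83 ± 0.21. HMOX1 fell by 1.01 ± 0.23 with LMNA (3.72 and 3.24 against 6.97 and 7.11 CPM) and by 1.02 ± 0.24 with GFP, where the pulldowns were uneven at 1.88 and 4.87 CPM; without GFP pulldown 1 the call was lost (log2 -0.45).

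GCLC rose by 0.34 ± 0.10 with LMNA and 0.33 ± 0.10 with GFP, the latter lost without GFP pulldown 1 (0.22, adjusted p = 0.13) or GFP input 2. GCLM and TXNRD1 fell with LMNA by 0.39 ± 0.13 and 0.32 ± 0.12, and these were lost without LMNA pulldown 2 or input 1 (TXNRD1 also without input 2). All 6 genes were called with LMNA, where 55.7% of all genes were, and 3 of 6 with GFP, where 53.5% were. The 4 pulldowns of set III are those of LMNA and GFP alone, and set and bait cannot be told apart between them and the set II pulldowns. Within set III the LMNA pulldown exceeded the GFP pulldown by 0.22 for SLC7A11 (adjusted p = 0.57), and none of the 6 genes was called between them. In the 22 set II pulldowns of baits other than SAM68, SLC7A11 lay between 48.5 and 127 CPM, below all 4 libraries of set III.

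Relative to NLS, SLC7A11 with LMNA was higher by 0.86 ± 0.31, just past the threshold (adjusted p = 0.0499) and lost without any of the 8 libraries in turn. NQO1 was lower with LMNA (-0.85 ± 0.26) and with GFP (-0.79 ± 0.27), each lost without 6 of 8 libraries. The shares of all genes called were 15.7% for LMNA and 17.9% for GFP. Speckle baits against LMNA gave -1.64 ± 0.25 for SLC7A11 (adjusted p = 1.8e-06), called without each library, and -0.57 ± 0.15 for GCLM, lost without LMNA pulldown 1 (log2 -0.38); 36.5% of all genes were called there, and the library sets of these baits differ.

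The NLS line itself had 1 of 6 genes called, HMOX1, from 9.03 and 9.63 CPM in the inputs to 6.01 and 6.35 in the pulldowns (log2 -0.59 ± 0.22), lost without any one of its 4 libraries; 22.6% of all genes were called with NLS. Over all 14 baits 41 of 84 pairs of gene and bait were called (20 higher and 21 lower), a share to be read against 34.5% of all pairs of tested gene and bait. Against NLS or LMNA 13 of 66 were called, against 12.2%. This count moved in both directions when libraries were left out, and no share of all genes was counted for those settings. By gene, TXNRD1 was called with 10 baits, NQO1 with 8, SLC7A11 and HMOX1 with 7, GCLM with 5 and GCLC with 4. SLC7A11 pulldowns and inputs did not overlap in any of the 14 lines, above in 11 and below in 3, though only 7 were called. GCLC and HMOX1 overlapped in 2 lines each. How often other genes separate in this way was not counted.

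Across lines, before any pulldown, SLC7A11 was the gene that differed most. Its lowest inputs outside FBL and NPAT were those of SP100, at 38.3 and 42.8 CPM, and its highest those of SRSF7 (108 and 113), GFP (111 and 109) and SRSF1 (109 and 107). Relative to the mean of the other 13 lines, SP100 was lower (-0.97 ± 0.18, adjusted p = 1.2e-04), and SRSF7, SRSF1 and GFP were higher by 0.58 ± 0.15, 0.55 ± 0.15 and 0.58 ± 0.15. These last 3 lines all had inputs between 107 and 113 CPM. The SRSF7 and GFP calls were each lost without either of their own inputs and the SRSF1 call without SRSF1 input 1.

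NPAT (-0.87 ± 0.17) and FBL (-0.49 ± 0.17) were also called lower for SLC7A11. With only its own first input left out NPAT stood at -0.40 and FBL at -0.02, and neither was called. With the first inputs of both lines left out together NPAT stood at -0.44 and FBL at -0.05. Within set II alone SRSF7 was at 0.42 (adjusted p = 0.13) and SRSF1 at 0.38 (adjusted p = 0.068) against the other lines of that set, and PML was called lower (-0.59, adjusted p = 0.035). Within set I, SP100 (-0.87), NPAT (-0.76, with both its inputs) and GFP (0.78) were called.

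The SRSF1 line's inputs held more GCLM (69.4 and 66.1 CPM), TXNRD1 (294 and 277 CPM) and HMOX1 (12.5 and 12.5 CPM) than the mean of the other lines, by 0.44 ± 0.09, 0.37 ± 0.09 and 0.56 ± 0.15; the last 2 were lost without SRSF1 input 1. With SLC7A11 that made 4 of 6 genes called higher, in a line where 40.1% of all genes were called. GCLM was higher in FLAG (61.2 and 68.4 CPM, log2 0.37 ± 0.09) and SMN2 (64.3 and 62.5 CPM, log2 0.33 ± 0.09), HMOX1 in SAM68 (13.03 and 12.2 CPM, log2 0.57 ± 0.15), and NQO1 was lower in WRAP53 (3.12 and 3.36 CPM, log2 -0.49 ± 0.14). The calls in FLAG, SMN2, SAM68 and WRAP53 were lost without either input of the line. GCLC was called in no line.

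One gene each was called in SRSF7 (9.2% of all genes), SAM68 (1.58%), SP100 (14%), SMN2 (1.95%), WRAP53 (3.48%), NPAT (14.9%), FBL (26.7%), GFP (7%) and FLAG (6.19%). None was called in RNPS1 (1.73%), PML (3.94%), LMNA (2.63%) or NLS (1.3%). In total 13 of 84 pairs of gene and line were called, against 9.62% of all pairs. The count moved without the first inputs of FBL and NPAT, where no share of all genes was counted.

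In SRSF7 pulldown RNA, the way RNA was selected for the library changed SLC7A11 most. It was at 160.8 and 190.5 CPM in the ribosome-depleted libraries and at 81.5 and 75.2 CPM in the poly(A) libraries, with no overlap, and fell by 1.16 ± 0.09 (adjusted p = 7.0e-11). GCLC fell by 0.30 ± 0.08 and HMOX1 rose by 0.88 ± 0.28, and these calls were lost without poly(A) library 2 (HMOX1 also without ribosome-depleted library 1). GCLM (0.22), TXNRD1 (-0.05) and NQO1 (0.69, adjusted p = 0.056) were not called. Thus 3 of 6 genes were called where 53.8% of 18641 genes tested were, and 1 of 6 (SLC7A11) without poly(A) library 2. The tables were fitted separately: SLC7A11 in the first table's SRSF7 pulldowns stood at 48.5 and 55.8 CPM, and those libraries are of set II while the second table is of set III.

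**Figure D3:**
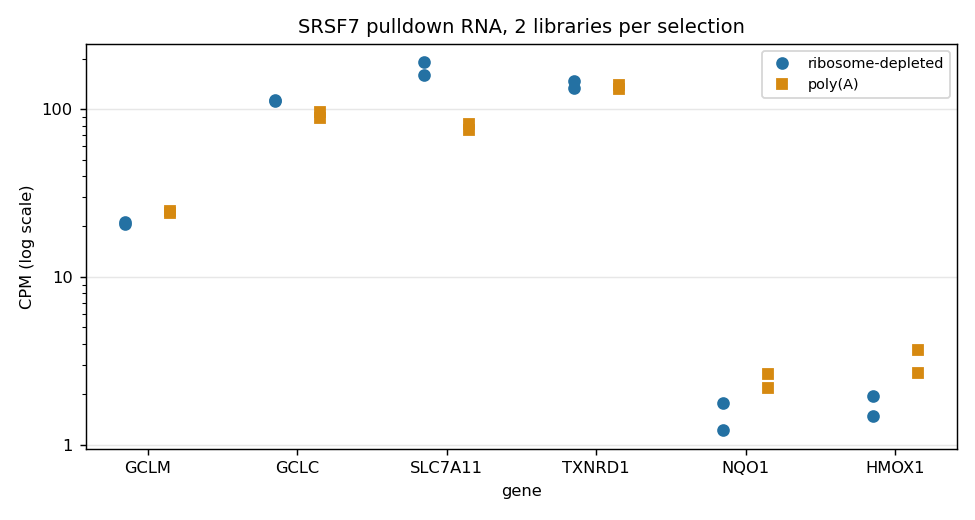
Level of 6 NRF2 antioxidant genes in SRSF7 pulldown RNA, in CPM on a log axis, 2 libraries after ribosomal RNA depletion (blue circles) and 2 after poly(A) selection (orange squares). SLC7A11 falls from 160.8 and 190.5 to 81.5 and 75.2 CPM, and the called shifts of GCLC and HMOX1 are smaller.

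Of 62 further genes of the NRF2 pathway and of antioxidant defence, 59 were tested (AKR1C1, AKR1C2 and PRDX2 were not). Against NLS, SAM68 had 2 of them higher and 3 lower, where 19.8% of all genes were called. SOD2, the mitochondrial superoxide dismutase, was higher by 1.45 ± 0.16, and GSR, which regenerates glutathione and is named here because the count is small, by 0.73. TXNRD2, the mitochondrial relative of TXNRD1, was lower (-0.97 ± 0.21), as were TRIM16 (-0.93 ± 0.23) and NQO2, the relative of NQO1 (-0.59 ± 0.15). None of the 11 regulators, NFE2L2 and KEAP1 among them, was called, and the median of the 59 was 0.054 against 0.0042 for all genes.

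The speckle baits had 21 of the 59 lower than NLS and none higher, led by the glutathione transferase GSTO1 (-0.95), the peroxidase GPX1 (-1.18) and the peroxiredoxins PRDX1 (-1.29) and PRDX4 (-1.31). The median was -0.42 against 0.14 for all genes. LMNA had 24 lower and 2 higher, led by mitochondrial thioredoxin TXN2 (-1.10), AKR1B1 (-1.16), glutathione synthetase GSS (-0.76) and GPX1 (-1.41), with a median of -0.51 against 0.03. GFP, of the same library set, had 25 lower and 4 higher. Between speckle and LMNA baits 13 were higher and 8 lower. The shares of all genes called in these comparisons were 18.9% (speckle), 15.7% (LMNA), 17.9% (GFP) and 36.5% (speckle against LMNA).

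**Figure D4:**
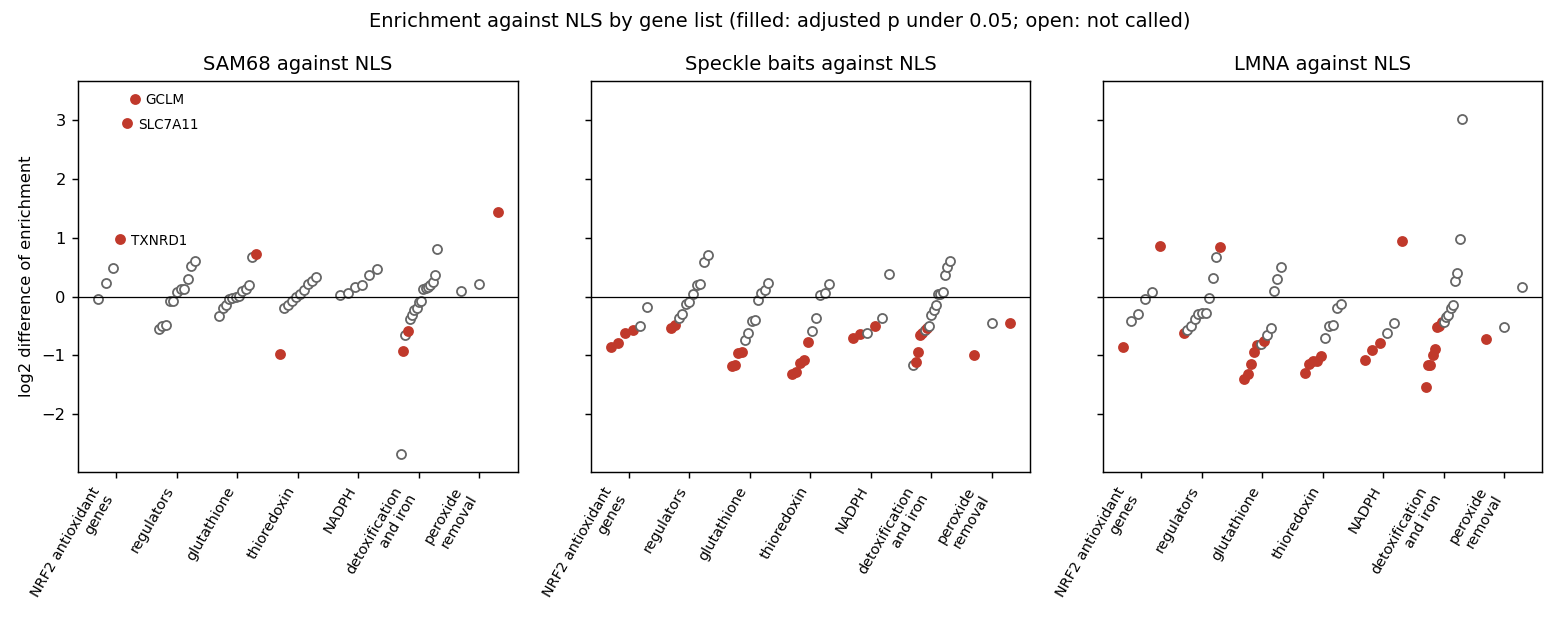
Log2 difference of enrichment from NLS for the 6 tested NRF2 antioxidant genes and 59 further pathway genes by list, for SAM68, the speckle baits and LMNA; each point is a gene, filled where the adjusted p is under 0.05. GCLM (3.37) and SLC7A11 (2.95) lie apart from the other points with SAM68, and with the speckle baits 21 of 59 pathway genes are called lower.

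In the inputs, the SRSF1 line had 29 of the 59 called higher and 2 lower, where 40.1% of all genes were called, with GSTP1 (1.02), SOD2 (0.48) and GSS (0.40) higher and TRIM16 (-0.80) lower. In the FLAG line, where 6.19% of all genes were called, 6 were higher, among them the small MAF genes MAFF (1.18) and MAFG (0.69) and SLC3A2 (0.57), the heavy chain that partners SLC7A11. CHAC1, which degrades glutathione, was higher in GFP inputs (1.22) and SRSF7 inputs (0.47) and lower in SP100 (-1.10) and SMN2 inputs (-0.69). NFE2L2 itself ranged from 34.2 to 65.4 CPM over the inputs and KEAP1 from 68.0 to 143. Of 56 tested in the second table, 36 were higher after poly(A) selection and 8 lower, where 53.8% of all genes were called, led by PRDX5 (1.76), GPX4 (1.56) and the ferritin chains FTL (1.53) and FTH1 (1.32).

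The genes whose enrichment ran most like a member's over the 14 baits, among 12157 candidates at 5 CPM or more, were named by Pearson's r as a description, with 14 means that share libraries and the SAM68 point far out. For GCLM they included SAV1 (0.99) and KRR1 (0.99), with r of 0.96 and 0.95 when SAM68 was left out. SLC7A11 ran with AMMECR1, FAM171B and C2orf69 (0.98 to 0.99), and TXNRD1 with GNA13, CREBL2 and KCTD20 (0.98 to 0.99). Among members, GCLM and SLC7A11 gave 0.91 (0.77 without SAM68) and GCLM and TXNRD1 0.81 (0.94 without SAM68), while GCLM and GCLC gave 0.21.

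By input level over the 14 lines, TXNRD1 ran most like PRDX1 (0.95), a peroxiredoxin served by the thioredoxin system, UGGT1 (0.95) and MAGOH (0.94). SLC7A11 ran most like EIF2S2 (0.93), a subunit of translation initiation factor eIF2, XPOT (0.93), which exports transfer RNA, and the isoleucyl transfer RNA synthetase gene IARS1 (0.92). GCLM ran most like PSMD11 (0.92), NUP98 (0.91) and SRP68 (0.90), and GCLC most like SLC30A5 (0.90). NQO1 reached at most 0.84 (RSRP1) and HMOX1 0.93 (YKT6). GCLM and GCLC gave 0.70 with each other, and GCLM and SLC7A11 0.08. These r values only describe 14 line means, which include the uneven FBL and NPAT inputs and inputs of sets I and II. Shared control of these genes was not tested.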

How the data were processed

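The authors deposited unnormalised counts, whole numbers of reads for each gene, made with STAR 2.7.4a and featureCounts on hg38 per the submitters' processing notes. The annotation, the featureCounts version and the strand setting were not given in the labels. Each replicate has its own column. Of 60591 rows, 1 with a cell that is no number was left out.

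The tests used edgeR 4.0.16 in R 4.3.3. The filter filterByExpr left 23681 genes (18641 in the second table), TMM set the effective library sizes, and a robust quasi-likelihood model was fitted to the 56 libraries together, with a mean for each group of 2 (28 residual degrees of freedom), and to the second table alone (2 residual degrees of freedom). The tests were 14 of pulldown over own input, 11 of enrichment against NLS or LMNA, 14 of a line's inputs against the other lines' and 1 of poly(A) selection, all two-sided with Benjamini-Hochberg adjustment over all genes tested and a threshold of 0.05. SE is the log2 difference over the square root of F. Depth per library is the total count, and intervals or floors from 3 counts cover counting error only. Replicates of the 30 pairs differed beyond counting noise (chi-square per degree of freedom of 1.30 or more).

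The members and lists were chosen with earlier results of these data known. Named were all members, up to 4 pathway genes per comparison with the smallest adjusted p, and the 3 genes most like each member by Pearson's r; GSR was named outside that rule, and 1 gene that the rule names is not reported here. Alternatives were DESeq2 1.42.0 size factors or its Wald test, total counts, filters, replicate blocks, library sets, pulldowns alone, inputs alone, and libraries left out; for single libraries left out, the trended dispersion of the full fit was kept, the spread re-estimated, and a line's input was left out only on the side of its own line. The test script was checked on simulated data. RefSeq promoter windows matched 5 of 7 members. Whether replicate numbers pair inputs with pulldowns is not given in the labels, and the main fit did not pair them. Correlations of their deviations ran from -0.23 to 0.48 over 14 baits, with a median of 0.12 and 7 of them over 0.1. These values do not settle the question.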

Additional observations from a re-analysis of the deposited data

Results flagged for a closer look

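The results below are differences of enrichment between baits past the threshold in edgeR's test of the difference itself, given as log2 differences. With SAM68 against NLS, GCLM was higher by 3.37, SLC7A11 by 2.95 and TXNRD1 by 0.98. Speckle baits against NLS stood at -0.62 for GCLM, -0.79 for SLC7A11, -0.56 for TXNRD1 and -0.86 for NQO1. SMN2 against NLS was higher for TXNRD1 by 0.65. LMNA against NLS was 0.86 for SLC7A11 and -0.85 for NQO1, and GFP against NLS was -0.79 for NQO1. Speckle baits against LMNA gave -0.57 for GCLM and -1.64 for SLC7A11. The LMNA and GFP pulldowns are the only ones of library set III in the first table, and the part of the set in their values cannot be told apart from the bait.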

How the results depend on the processing

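Of 70 called pairs of gene and comparison, 32 kept their direction and their side of the threshold under every alternative run for them, 38 lost the call under at least 1, and 0 changed direction. Pulldown over own input kept 41 calls with the replicate block (37 of them shared with the fit without it), enrichment 13 (12 shared) and poly(A) selection 3. For lines the block was added to a fit of the inputs alone, and calls went from 13 to 9 (8 shared). Inputs fitted alone without the block also gave 9 calls (8 shared). The labels do not say whether replicate numbers pair inputs with pulldowns. Shares of all genes called were counted in the main fit only. Counts of calls under the alternatives therefore have no share to be set against. Calls of enrichment against NLS or LMNA numbered 13, but 21 with the DESeq2 Wald test, 25 without the first inputs of FBL and NPAT and 28 with pulldown libraries alone, and the line comparison rose from 13 to 24 calls without those inputs; the cause was not tested. Calls of pulldown over own input went from 41 to 53 without the same inputs (37 shared) and to 34 with no filter on low counts (31 shared). With single libraries left out the calls ran from 38 to 42 for pulldown over own input, 8 to 15 for enrichment, 10 to 15 for lines and 1 to 4 for poly(A) selection; the lone sample left in a group is assumed to vary like the other groups. With a mean of 5 CPM required, NQO1 was not tested in the first table, nor NQO1 and HMOX1 in the second. At levels of 1.54 to 13.03 CPM NQO1 and HMOX1 rest on 44 to 606 counts a library, the thinnest of the tested genes.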
